A study of Rattus norvegicus with 2 samples.

Results

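Heat shock proteins are chaperones: they hold unfolded proteins, fold them or hand them on, and many are made in larger amounts when cells are stressed. The ones described here belong to the small heat shock proteins, the mitochondrial chaperonin with its lid, the Hsp70 family and the Hsp90 family, together with Hsf1, the transcription factor that switches many of their genes on. In arteries, small heat shock proteins bind actin and desmin filaments of smooth muscle, and Hsp90 binds endothelial nitric oxide synthase. The genes were chosen by name, 10 in all. Of them 7 (Hspb1, Cryab, Hspd1, Hspe1, Hspa2, Hsp90ab1 and Hsf1) have probe sets that the platform annotation gives to a single gene, among 4736 genes on the array that do. They hold 18 of its 8799 probe sets. Hspa8, Hspa1b and Hsp90aa1 have 2, 4 and 3 probe sets that carry another gene's symbol as well, so they have no value of their own.

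The comparison was between rats with prehepatic portal hypertension, made by partial ligation of the portal vein, and control rats that underwent a sham operation. In each group, total RNA of the first and second branches of the small mesenteric arteries was pooled over 20 rats and read on 1 RG_U34A array, an Affymetrix rat array whose probe sets each report a transcript. The labels give no strain, age, sex or time after the operation. The values are linear signal intensities, 1 per probe set and pool. With 1 array per group there is no replicate, no SE and no p, so precision is limited by how few arrays there are.

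The portal hypertensive array took 12.5 µg of labelled cRNA (a noted figure with a question mark) and fluidics module 1, the sham array 17 µg (also with a question mark) and module 2. Amount, module and operation cannot be told apart. Signals below a floor of 330.9 intensity units, the 40th percentile of both arrays together, were raised to that floor before the log2 step. Of the listed smooth muscle genes on the array, 5 of 5 lay above the floor (Acta2, Myh11, Tagln, Cnn1 and Des). Of the 5 endothelial markers on the array, Pecam1, Nos3 and Icam2 had a probe set above it in both pools, and Kdr and Vwf lay below it in both. In RNA of whole vessels, fewer cells of a type and less RNA per cell cannot be told apart.

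The heat shock element is the DNA sequence that Hsf1 binds. It is built of inverted repeats of GAA, so 2 letter patterns were searched, GAANNTTC and TTCNNGAA, each of which reads the same on both strands and shares 3 bases with the other where they abut. The window was the 250 bases before the transcript start in RefSeq, build GRCr8, which held 5 of the 7 genes: Hspb1, Hspd1, Hspe1, Hspa2 and Hsp90ab1. The stretches of 30 bases that hold the matches are shown so that the letters can be compared between genes; capitals mark the matched letters.
Hspe1, chr9:64084256-64084285, + strand: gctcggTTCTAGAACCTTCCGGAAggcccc
Hspd1, chr9:64084256-64084285, - strand: ggggccTTCCGGAAGGTTCTAGAAccgagc
Hspa2, chr6:100864367-100864396, + strand: gctctgagagtTTCCAGAAggcagggggtg
Hspb1, chr12:26432402-26432431, - strand: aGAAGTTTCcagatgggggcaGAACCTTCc

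Hspd1 and Hspe1 lie head to head on chromosome 9 and share this stretch. The Hspe1 and Hspd1 lines are the same 30 bases read on opposite strands, with 3 overlapping matches that run from -65 to -48 counted from the Hspe1 start. The Hspb1 window held 2 matches of GAANNTTC, at -129 and -109 by their first base, which do not overlap. Hspa2 held 1 match, at -64. The Hsp90ab1 window held neither pattern. Among the 33469 promoters of the RefSeq table, 13.5% held at least 1 of the 2 patterns in a window of this length, and 0.663% held matches that overlap. A match is a string of letters, not a measured site.

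Across the 7 genes the pools differed little, and the genes did not go one way. The gene ratios (log2, portal hypertensive over sham) were above 0 for Hspa2, Hsp90ab1, Hspe1 and Hsf1 and below 0 for Hspd1, Cryab and Hspb1, with a range of -0.29 to 0.58 and a median of 0.03. The median over all 3351 genes with a value was -0.02. None of the 7 genes and none of the 17 probe sets above the floor reached 1.5-fold in either direction. Hspa8, Hspa1b and Hsp90aa1 are outside these counts. Of 6 probe sets above the floor that name a heat shock gene together with another gene, 1 was 1.67-fold dimmer in the portal hypertensive pool. Over the whole array, 9.63% of 5527 probe sets and 8.18% of genes were at least 1.5-fold apart, which is the background for the 0 of 17 and 0 of 7 here. It was not matched for signal level: all 17 lay above the floor in both pools, against 4960 of the 5527. Of those 5527 probe sets, 3.55% were at least 1.5-fold higher (196) and 6.08% lower (336); after quantile normalization, 257 were higher and 275 lower. Below 0 lay 3 of the 7 genes and 9 of the 17 probe sets, against 53.2% of all genes and 53.7% of all probe sets.

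Without replicate arrays, the noise of a ratio was not measured. What can be read is how far ratios differ between probe sets of the same gene. Over 1801 probe sets of 789 genes the ratios scattered around their gene's mean with an SD of 0.30, and with an SD of 0.26 for genes at or above the median level. The 16 probe sets of the 6 heat shock genes with several above the floor scattered with an SD of 0.18. Of the 17 heat shock probe sets above the floor, 13 had a ratio no larger than 0.30 in size. This scatter contains no difference between rats and no error shared by all probe sets of a gene. It describes single probe sets, not medians over probe sets or over genes.

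**Figure D1:**
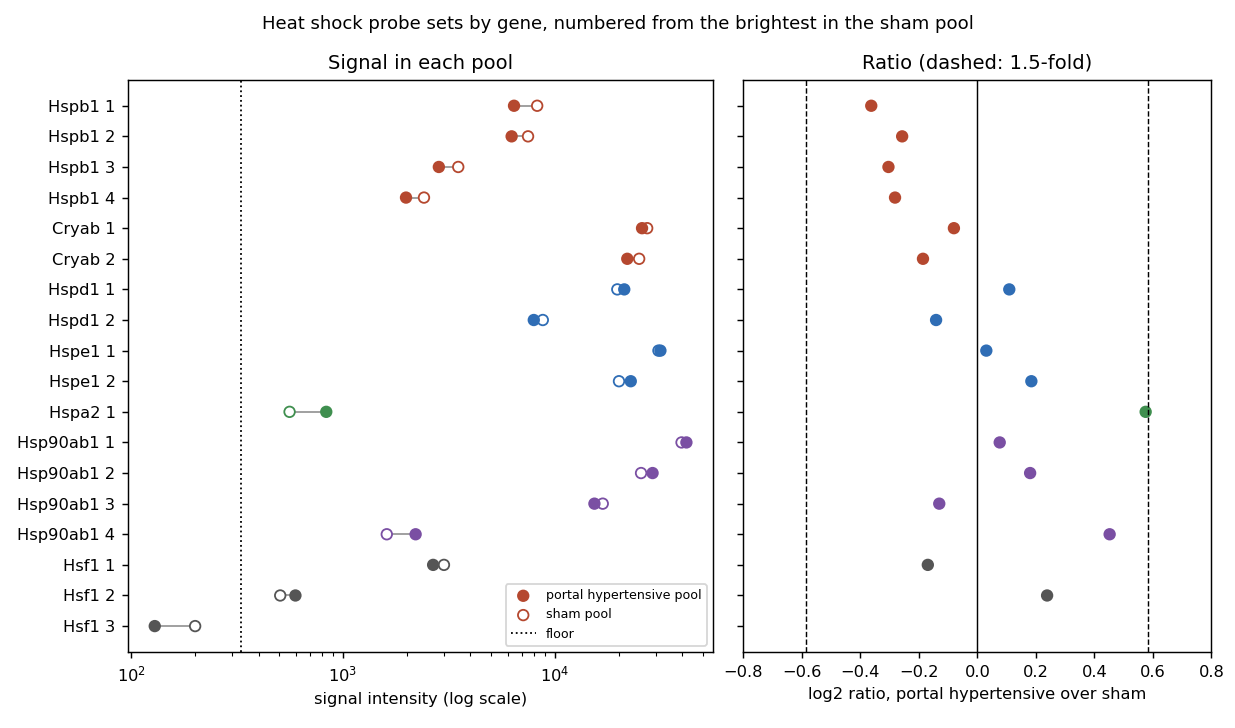
Signal intensity (log axis, left) and log2 ratio (right) of the 18 heat shock probe sets, filled circles for the portal hypertensive pool and open circles for the sham pool, coloured by family. All 4 Hspb1 and both Cryab probe sets lie left of 0, Hspa2 lies just inside the dashed 1.5-fold line, and Hsf1 3 is below the floor and has no ratio.

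The small heat shock proteins were the one family whose probe sets all lay below 0. Hspb1 encodes the rat Hsp25 or Hsp27 protein, which caps actin filaments and is phosphorylated when smooth muscle contracts. Its 4 probe sets had signals of 6423, 6258, 2837 and 1986 in the portal hypertensive pool, against 8261, 7480, 3503 and 2414 in the sham pool. Each of these 4 Hspb1 probe sets was thus dimmer in the portal hypertensive pool, by log2 ratios from -0.36 to -0.26. Their ratios lay closer together than those of the other 5 heat shock genes with several probe sets, with an SD of 0.05. The pair in the middle of that order was designed on the same sequence and does not give independent readings. The gene's median ratio was -0.29, so the sham pool had 1.23 times the signal of the portal hypertensive pool. For comparison, single probe sets scattered with an SD of 0.26 in genes at or above the median level and 0.30 over all genes.

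Cryab encodes alpha B-crystallin, a lens protein that is also plentiful in muscle, where it binds desmin. Its 2 probe sets gave 25823 and 21996 intensity units in the portal hypertensive pool, against 27302 and 25025 in the sham pool. Both were dimmer in the portal hypertensive pool, by log2 ratios of -0.08 and -0.19. The gene's value of -0.13 is smaller than the scatter between probe sets.

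Relatives of this family were read from a list of other small heat shock proteins, Hsp70 relatives and heat shock factors. Hspb6, a small heat shock protein of smooth muscle linked to relaxation, had log2 ratios of -0.32 and -0.24 on its 2 probe sets. Hspb2, the neighbour of Cryab in the genome, had -0.16 on its 1 probe set above the floor. Cryaa, the lens partner of Cryab, had 0.24 on a single probe set, which read 933.9 in the portal hypertensive pool and 791.9 in the sham pool.

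Smooth muscle markers did not all go one way. Of the 5 on the array, 4 had ratios below 0, where 53.2% of all genes lay. Their median was -0.10, smaller than the scatter between probe sets of a gene. Acta2 was lowest with -0.32, and Tagln, the brightest, had 0.17 with both probe sets above 0. The smooth muscle probe sets summed to 427586 intensity units in the portal hypertensive pool and 441438 in the sham pool. Of the fat cell markers, 3 of 4 with a value were above 0, with a median of 0.31, and Lep had -0.21. Their sum was 107153 in the portal hypertensive pool and 87982 in the sham pool, with Plin1 below the floor in both. Endothelial markers had 3 of 3 values below 0. Of them, 2, Nos3 and Icam2, were at least 1.5-fold lower, and Pecam1, the brightest, had -0.10. The single Icam2 probe set read 364.7 in the portal hypertensive pool, near the floor, and 796.1 in the sham pool. Of 6 Nos3 probe sets, the 3 above the floor disagreed in direction, with log2 ratios from -1.20 to 0.25. The endothelial sum was 6435 in the portal hypertensive pool and 8050 in the sham pool. Skeletal and cardiac muscle markers matter here because such muscle is rich in Cryab and Hspb1. They had 4 of 7 values above 0 and a median of 0.08, which is the Tnnc2 value. These markers summed to 6140 in the portal hypertensive pool and 6101 in the sham pool, with Tnni2 and Actc1 below the floor in both. Tnnc2, Myh6 and Tnnt2 had no probe set above the floor in both pools, so the floor set part of their ratios. Macrophage markers had 3 of 4 values above 0 with a median of 0.33. Fcgr2b was 1.90 times as bright in the portal hypertensive pool as in the sham pool, and Cd14 had a log2 ratio of -0.14. The macrophage sum was 41157 in the portal hypertensive pool and 35184 in the sham pool, with Csf1r below the floor in both. Mast cell markers had 3 of 4 values above 0 with a median of 0.46. The protease genes Cma1 and Cpa3 were 2.30 and 1.76 times as bright in the portal hypertensive pool. Tpsb2 went the other way, with a log2 ratio of -0.37, and Tpsab1, near the floor, had 0.10. The mast cell sum was 17482 in the portal hypertensive pool and 10372 in the sham pool. Nerve and Schwann cell markers had 1 of 2 values above 0 with a median of -0.02. The part of these cell types in the heat shock ratios was not tested.

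The mitochondrial chaperonin genes had nearly equal signals in both pools. Hspd1 encodes Hsp60, the barrel in which mitochondrial proteins fold. Its probe sets read 21285 and 7962 in the portal hypertensive pool, against 19736 and 8781 in the sham pool. They lay on opposite sides of 0, with log2 ratios of 0.11 and -0.14, so no direction was settled. Hspe1 encodes Hsp10, the lid of that barrel, and is transcribed away from Hspd1 across the stretch printed above. Its probe sets, both designed on 1 sequence, read 31528 and 22843 in the portal hypertensive pool, against 30868 and 20101 in the sham pool. Both were slightly brighter in the portal hypertensive pool, with log2 ratios of 0.03 and 0.18. The gene values of -0.02 for Hspd1 and 0.11 for Hspe1 differ by less than the scatter between probe sets of a gene.

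Hspa2 had the ratio farthest from 0 of the 7 genes. It encodes an Hsp70 that is best known from the testis of rat and mouse, where male germ cells need it for meiosis. Its single probe set had a signal of 834.6 in the portal hypertensive pool, against 560.1 in the sham pool. The portal hypertensive pool was thus 1.49 times brighter, a log2 ratio of 0.58 that fell just short of 1.5-fold. It passed 1.5-fold after quantile normalization, with 0.66, and after removal of a loess trend, with 0.64. Both signals lay near the floor, where ratios scattered most: probe sets of genes below the median level had an SD of 0.35.

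**Figure D2:**
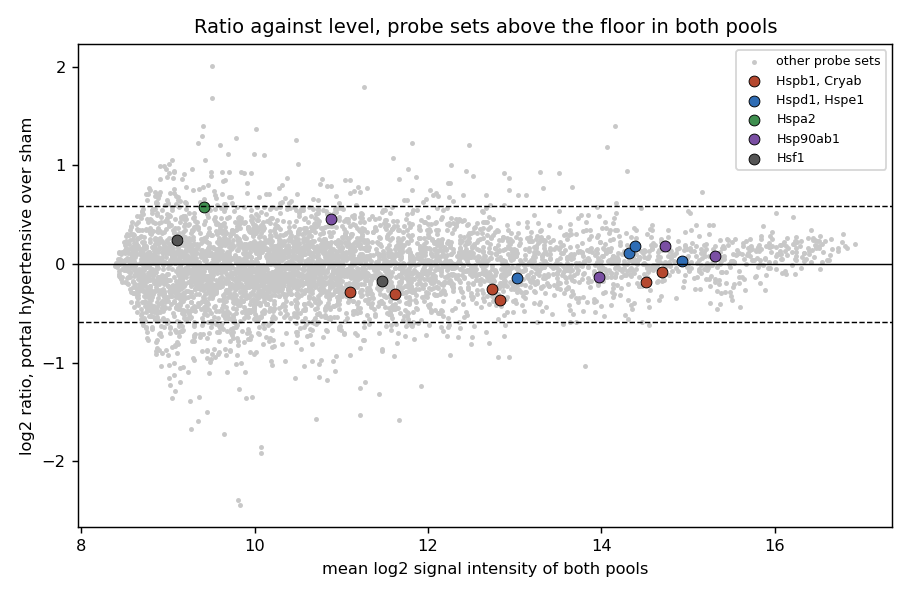
Log2 ratio, portal hypertensive over sham, against the mean log2 signal of both pools for the 4960 probe sets above the floor in both, with the heat shock probe sets in colour and dashed lines at 1.5-fold. Hspa2, at 0.58, sits at the dim end where the grey cloud is widest, while Hsp90ab1, Hspe1, Hspd1 and Cryab include probe sets among the brightest on the array.

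Of the other Hsp70 genes, Hspa1a, one of the classical stress-induced ones and nearly identical to Hspa1b, had a signal of 781.5 in the portal hypertensive pool and 881.9 in the sham pool. Its log2 ratio was -0.17, and its probe set carries the suffix for sequence shared between transcripts, so signal of the copies cannot be told apart. Hspa13 had -0.01.

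Hsp90ab1 encodes the constitutive cytosolic Hsp90, which keeps kinases, steroid receptors and nitric oxide synthase in a form that can be switched on. Its 4 probe sets read 41826, 28952, 15390 and 2204 in the portal hypertensive pool, against 39672, 25552, 16847 and 1611 in the sham pool. The portal hypertensive pool was brighter on 3 of them and dimmer on the third, with log2 ratios of 0.08, 0.18, -0.13 and 0.45. The highest ratio came from the dimmest probe set. The gene's median was 0.13, and it turned to -0.13 when the 3 probe sets with the suffix for shared sequence were left out, because only the third one then remained.

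Hsf1 encodes the factor that binds the heat shock element, and it is known to be controlled mainly through its protein, which is held inactive by chaperones until stress. Its 2 probe sets above the floor, both designed on 1 sequence, read 2667 and 596.9 in the portal hypertensive pool, against 2999 and 506 in the sham pool. They pointed opposite ways, with log2 ratios of -0.17 and 0.24. The third probe set read 129.4 in the portal hypertensive pool and 200.7 in the sham pool, both below the floor. The gene's median of 0.03 and its turn to -0.17 under 3 other settings leave its direction unsettled.

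**Figure D3:**
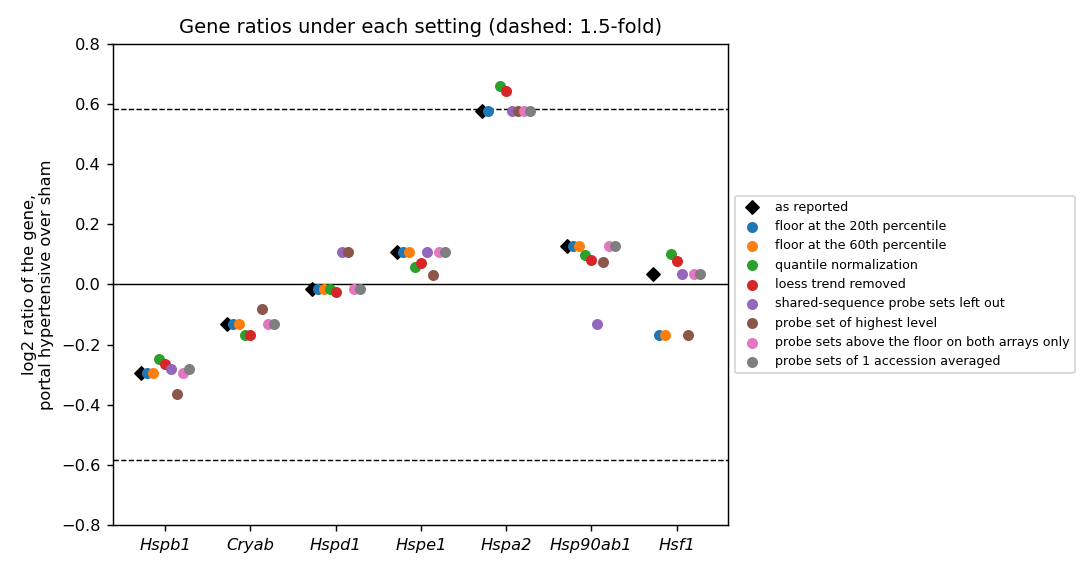
Log2 ratio of each of the 7 heat shock genes as reported (black diamonds) and under 8 other settings (coloured circles), with dashed lines at 1.5-fold. Hspb1 and Cryab are below 0 and Hspe1 and Hspa2 above 0 at every setting that gave them a value. Hspd1, Hsp90ab1 and Hsf1 cross 0. Not every setting could move a gene: both other floors left Hspb1 and Cryab unchanged. Hspa2, with 1 probe set, moved only after quantile normalization and after the loess, where it exceeds 1.5-fold.

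Partners and relatives of these chaperones were read from 5 lists of 71 genes, 28 of which had a value. The list of other small heat shock proteins, Hsp70 relatives and heat shock factors drawn on above is among the 5. Of these 28, 18 had ratios below 0 and 10 above it, and none reached 1.5-fold, against 53.2% below 0 and 8.18% at 1.5-fold over all genes. Their median was -0.07, and that of all genes -0.02. The values ran from -0.45 to 0.48.

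Partners of Hsp70 had small ratios, more of them below 0 than above. They include the J-domain proteins, which deliver substrates to Hsp70 and start its ATPase, and 8 of 10 with a value were below 0, where 53.2% of all genes lay, with a median of -0.10. Dnaja4, a J-domain protein, had -0.27 and Dnajb5, another, -0.17. Bag6, which escorts misfolded membrane proteins, had 0.37. Dnajb1, the J-domain protein most often induced with Hsp70, had -0.02 over 2 probe sets.

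Partners of Hsp90 went both ways, with 3 of 5 above 0 and a median of 0.06. Stip1, the adaptor that passes substrates from Hsp70 to Hsp90, had the lowest value of all 5 lists, with 993.7 in the portal hypertensive pool and 1354 in the sham pool and a log2 ratio of -0.45. Cdc37, which brings kinases to Hsp90, had 0.33 over 2 probe sets, and Chordc1 had -0.25. Ppp5c was below the floor in both pools.

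In mitochondria, 3 of 5 listed genes were above 0, with a median of 0.13. Timm44, which ties the mitochondrial Hsp70 to the import channel, had the highest value of the 5 lists, with 484.8 in the portal hypertensive pool against 347 in the sham pool and a log2 ratio of 0.48, close to the floor. Dnaja3, a mitochondrial J-domain protein, had 0.37, and Grpel1, the nucleotide exchange factor of mitochondrial Hsp70, -0.27. Hspa9, that Hsp70 itself, had -0.18 over 3 probe sets that ran from -0.33 to 0.30.

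Only 3 genes of the cytosolic chaperonin and prefoldin, which fold actin and tubulin, had a value. Cct3 had 0.31, Cct6a -0.21 and Pfdn2 -0.04, so subunits of the chaperonin lay on opposite sides of 0. Of the 5 genes of the list of other small heat shock proteins, Hsp70 relatives and factors, 4 were below 0, with a median of -0.16.

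**Figure D4:**
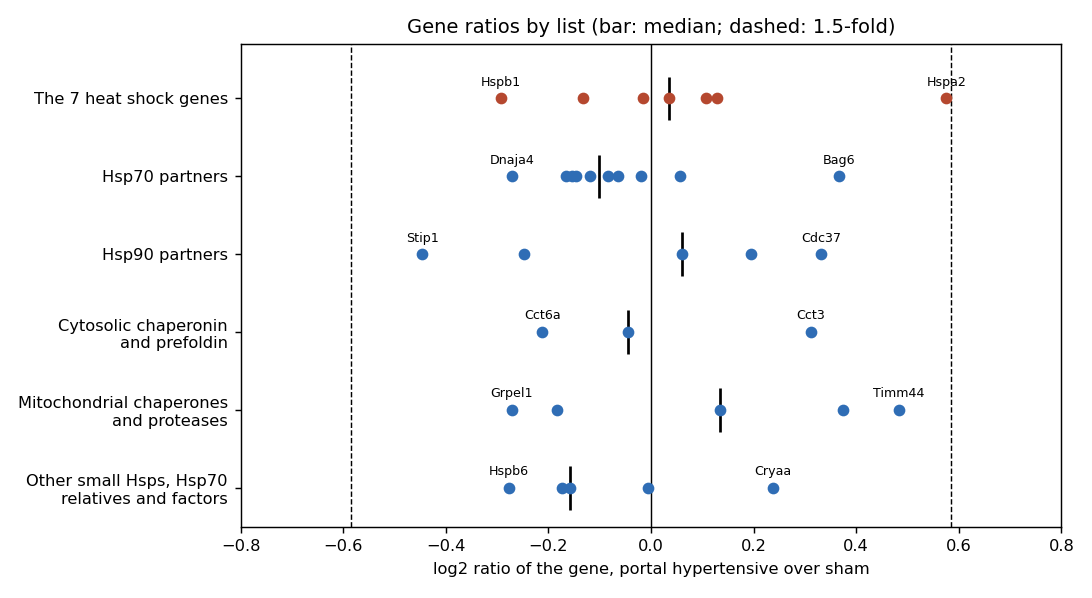
Log2 ratio, portal hypertensive over sham, for each gene with a value (points), by list, with the list median as a bar, dashed lines at 1.5-fold and the genes at both ends named. No gene of any list passes the dashed lines, and the points of 6 rows lie on both sides of 0.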

How the data were processed

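The authors deposited a linear signal intensity for each probe set on each array. How they corrected background and scaled these intensity values is not given in the sources used here. Means without the lowest and highest 2% of values were 2504.38 in the portal hypertensive pool and 2504.33 in the sham pool, so the values were used without further scaling. Per the file headers, both arrays were RG_U34A.

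Gene names came from the platform annotation where it gives 1 symbol (7006 probe sets without controls). The 308 with several were left unnamed, and RefSeq (GRCr8) kept all 7 member symbols. The 59 control probe sets were left out. A probe set counted where at least 1 pool lay above the floor, and a gene's value was the median log2 ratio of its counted probe sets. No test was possible with 1 array per group, so values were counted at 1.5-fold. The counting was run on simulated data with changes larger than 1.5-fold and less scatter than here. It gives no rate of false or missed calls for these data. The cell type lists, the partner and relative lists, the members and the named genes were chosen with earlier results of these data known. These named genes were all members, and up to 3 genes per partner or relative list with the largest ratio. Genes named beyond these were chosen after their values were seen. Python 3.11.15, pandas 2.3.3 and statsmodels 0.14.6 (loess span 0.4) were used. Alternatives were floors at the 20th and 60th percentile, quantile normalization, loess, leaving out shared-sequence probe sets, and 3 other gene summaries.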

Additional observations from a re-analysis of the deposited data

How the results depend on the processing

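Leaving out 1 replicate was not possible, and no paired analysis was possible because each group has 1 array. The median over the heat shock genes ranged from -0.07 to 0.07 over 8 alternatives and was below 0 under both other floors. With the floor at the 20th percentile, 1 heat shock probe set, the dim Hsf1 one, was at least 1.5-fold lower, and over the whole array 575 probe sets were higher and 734 lower. With the floor at the 60th percentile those counts were 77 and 132, and Hspa2 had no value. After quantile normalization and after the loess, 1 heat shock gene and 1 probe set, both Hspa2, were at least 1.5-fold higher. Hsf1 changed sign under 3 of 8 alternatives, Hspd1 under 2 and Hsp90ab1 under 1. Hspb1 stayed between -0.36 and -0.25, and both other floors left its value unchanged. The averaging of probe sets of 1 sequence was chosen after seeing the data. Signals near the floor limit what can be read of Hspa2, Hsf1, Timm44 and Icam2.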

Other observations

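A further 10 probe sets carry a heat shock gene's symbol together with that of another gene and so name no single gene. Hspb1 has 1 of them, and the rest are those of Hspa8, Hspa1b and Hsp90aa1. Of these, 6 lay above the floor in both pools, 5 with log2 ratios below 0 and 1 above it, with a median of -0.13 and a range of -0.74 to 0.15. The lowest of them had a signal of 4500 in the portal hypertensive pool, against 7500 in the sham pool. That 1 probe set was 1.67-fold dimmer in the portal hypertensive pool, past the 1.5-fold that none of the single-gene heat shock probe sets reached. The next lowest had -0.36.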
